A study of Mus musculus with 12 samples.

Results

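The galectin genes described here are *Lgals1*, *Lgals3*, *Lgals8* and *Lgals9*, which encode galectins, and *Lgals3bp*, which encodes a secreted glycoprotein that binds galectin-3. These 5 genes were taken as a named list from the 41255 genes of the mRNA table. The list was chosen by gene family, with the footprint changes between the genotypes in view, *Lgals3* being selected on its RPF change as the member with the largest rise in *R98S* cells, so the values of *Lgals3* between the genotypes are given as a description with no test. All 5 were in the mRNA table and 4 of them (all but *Lgals3bp*) were in the ribosome footprint table.

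The study measured ribosome-protected mRNA fragments (RPF) and matched mRNA in Ba/F3 cells, an interleukin-3 dependent mouse lymphoid line. Cells carried human *RPL10*, a protein of the large ribosomal subunit, as *RPL10 R98S* (clones 11, 13 and 35) or *RPL10 WT* (clones 28, 29 and 36), and each of the 6 clones gave 1 RPF and 1 mRNA library. In both genotypes the human cDNA came from a retroviral vector and the mouse *Rpl10* was knocked down with an shRNA, and all cells received cycloheximide at 100 µg/ml for 5 min before lysis. Each clone was grown from a single cell, so a difference between genotypes is a difference between 3 clones and 3 clones, and p-values measure the spread among clones.

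Galectins are small proteins that bind beta-galactoside sugars on glycoproteins through a conserved carbohydrate recognition domain. They are made on free ribosomes and leave the cell without a signal peptide, so they act in the cytosol and nucleus as well as on the outer cell surface, where they cross-link receptors. Galectin-1 is the dimeric type with 1 domain per chain, galectin-3 joins 1 such domain to a long proline- and glycine-rich tail, and galectin-8 and galectin-9 hold a pair of different domains in tandem. In the immune system they are known for effects on lymphocyte survival, adhesion and receptor signalling, and galectin-3, galectin-8 and galectin-9 are known to gather on damaged lysosomes.

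The mRNA of *Lgals3* and of *Lgals7*, a galectin gene outside the list, was higher in every *R98S* clone, and sequence upstream of the RefSeq start of these 2 genes is shown because the difference was already present in mRNA. The windows are from RefSeq, build GRCm38.p6, at chr14:47373610-47373812 and chr7:28864136-28864228, both on the plus strand, and stop at the nearest GENCODE M21 exon, 47 and 157 bases short of the RefSeq start. GENCODE M21 also holds transcripts of both genes that start further upstream, so by its gene bounds the windows lie in introns. They are written 5′ to 3′, and the capitals mark a match to an E box in *Lgals3* and a GC box in *Lgals7*.
Lgals3: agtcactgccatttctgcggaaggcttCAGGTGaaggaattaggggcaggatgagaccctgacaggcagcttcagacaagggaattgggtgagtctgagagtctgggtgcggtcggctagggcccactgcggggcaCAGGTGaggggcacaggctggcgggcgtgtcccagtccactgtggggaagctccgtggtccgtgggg
Lgals7: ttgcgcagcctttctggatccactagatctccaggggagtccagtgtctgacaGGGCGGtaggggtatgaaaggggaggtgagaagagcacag

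Both strands of each window were searched for an E box (CANNTG), a GC box (GGGCGG), an AP-1 motif (TGANTCA) and a STAT motif (TTCNNNGAA). The 203 bases of *Lgals3* held 2 E boxes, both with the letters CAGGTG, and none of the other 3 motifs. An E box was present in 59.5% of the 32851 promoter windows of the same length. The 93 bases of *Lgals7* held 1 GC box, which 9.67% of windows of that length held, and no E box. These matches describe the letters of the windows, and no measurement of binding was made. The *Lgals3* window had a GC content of 63.1% against a median of 51.7% over all windows of its length.

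The values are read counts per gene divided by a size factor of each library, called normalized counts below. Total reads were 20576796 to 23136595 in 5 mRNA libraries and 6617457 in that of WT clone 28, where 1 read is worth 2.69 normalized counts, and 3477723 to 10883086 in the RPF libraries. *Rpl10*, the knocked-down gene, had normalized mRNA counts of 1449 to 2905 in *R98S* clones and 2230.2 to 4501 in *WT* clones (log2 change −0.42, limma adjusted p = 0.551), and the knockdown was common to both genotypes. Reads were aligned to the mouse genome, and whether reads of the human *RPL10* cDNA were counted under this gene was not tested. Among 15 lymphoid and Ba/F3 markers, 6 reached a mean of 10 normalized mRNA counts (*Ptprc*, *Cd79a*, *Cd79b*, *Il3ra*, *Csf2rb* and *Csf2rb2*), while *Pax5*, *Il7r*, *Rag1* and *Kit* were at 0 in every library. Across all genes, limma at an adjusted p under 0.1 called 6.94% of 11344 genes in mRNA, 7.76% of 9580 in RPF and 0.0221% of 9043 in translation efficiency (TE, the RPF to mRNA ratio of a clone).

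*Lgals3*, on chromosome 14 (47367751 to 47386160, plus strand), had the highest RPF rise of all 9580 genes tested. All 10080 genes with RPF values were above 0 in every library, so genes without footprints in some clone could not be ranked. The normalized RPF counts of *Lgals3* were 719, 472 and 596 in *R98S* clones 11, 13 and 35, and 27.7, 27.1 and 27.7 in *WT* clones 28, 29 and 36. Every *R98S* clone stood far above every *WT* clone, and the 3 *WT* clones were almost equal. The means were 596 ± 124 and 27.5 ± 0.358 (SD, n = 3 each), a ratio of 21.7 and a log2 change of 4.37 (SE 0.23). The reads behind the *WT* values were 29, 26 and 21 and those behind the *R98S* values were 1352, 563 and 355.

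The mRNA of *Lgals3* differed by about as much as its RPF. Normalized mRNA counts were 1001, 611 and 941 in *R98S* clones 11, 13 and 35 and 48.3, 34.6 and 42.3 in *WT* clones 28, 29 and 36. The means were 851 ± 210.1 and 41.8 ± 6.86 (SD, n = 3 each), a ratio of 20.4 and a log2 change of 4.30 (SE 0.27). By size of the mRNA rise *Lgals3* ranked 45 of 11344 genes, which were not limited to genes above 0 in every library. Clone 13 was the lowest *R98S* clone in both measurements. In bulk cultures, a change in the number of cells that express a gene and a change in RNA per cell cannot be told apart.

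The RPF to mRNA ratio of *Lgals3* was 0.718, 0.772 and 0.633 in *R98S* clones and 0.573, 0.781 and 0.654 in *WT* clones. The genotypes overlapped, with the lowest and the highest ratio both in *WT* clones. The log2 TE change was 0.07 (SE 0.20), rank 3634 of 9043 genes. The tables were normalized separately, so the ratio has no absolute scale and is compared only between clones or genes.

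**Figure D1:**
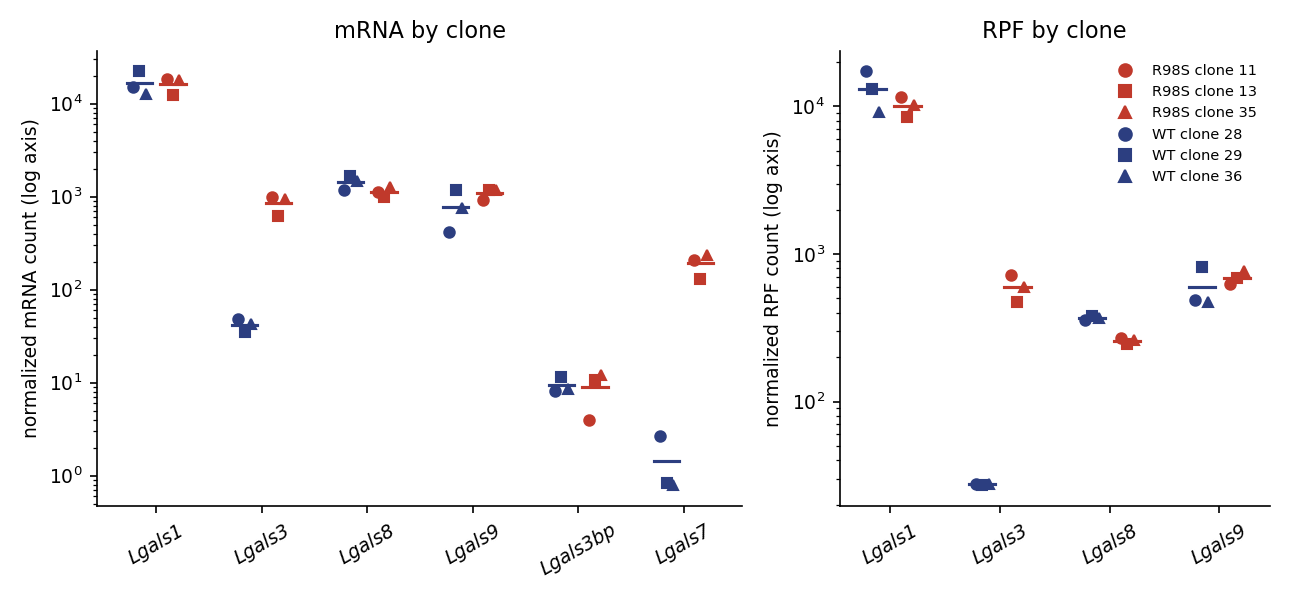
Normalized mRNA counts (left) and RPF counts (right) of the galectin genes on log axes, with 1 point per clone, *WT* in blue, *R98S* in red and lines at the means. *Lgals3* sits between 472 and 719 RPF counts in *R98S* clones and between 27.1 and 27.7 in *WT* clones, while the clones of *Lgals1* and *Lgals9* overlap.

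Of the other 3 members measured in both tables, 0 passed an adjusted p of 0.1 in mRNA or in RPF by limma, edgeR or DESeq2, against a background of 6.94% and 7.76% of all genes (3.03% and 3.13% higher in *R98S*). At an unadjusted p under 0.05, limma gave 0 of the 3 in mRNA and 1 in RPF (*Lgals8*), where all genes gave 17.9% and 20.3%.

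*Lgals8*, which encodes the tandem-repeat galectin-8 known for recruiting autophagy receptors to damaged vesicles, lies on chromosome 13 (12439415 to 12464944, minus strand). Its normalized RPF counts were 271, 245 and 260.3 in *R98S* clones 11, 13 and 35 and 356, 383 and 370.3 in *WT* clones 28, 29 and 36. The genotypes did not overlap, as for 25.3% of all genes tested in RPF. The means were 259 ± 13.1 and 369.9 ± 13.4 (SD, n = 3 each), with a log2 change of −0.52 (95% interval −0.90 to −0.13). The limma adjusted p over all genes was 0.128 and missed the threshold, and the exact permutation test gave a two-sided p = 0.1, the smallest that 3 against 3 clones allow.

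*Lgals8* mRNA was 1126, 993 and 1269 in *R98S* clones and 1184, 1669 and 1451 in *WT* clones, in normalized counts. Clone 35 of *R98S* stood above clone 28 of *WT*, so the genotypes overlapped, whereas 23.5% of all genes did not overlap in mRNA. The log2 mRNA change was −0.34 (95% interval −0.77 to 0.09, limma adjusted p = 0.400). Its RPF to mRNA ratio was 0.205 to 0.246 in *R98S* clones and 0.230 to 0.301 in *WT* clones, and the log2 TE change was −0.18 (limma adjusted p = 0.790). In the transcript of *Lgals8*, 2.56% of 30-base words also occurred in a transcript of AC107765.2, while no word was shared with another gene for *Lgals1*, *Lgals3*, *Lgals9* or *Lgals3bp*.

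*Lgals9*, on chromosome 11 (78962974 to 78984946, minus strand), encodes galectin-9, a ligand of the inhibitory T cell receptor Tim-3. Normalized mRNA counts were 918, 1174 and 1188 in *R98S* clones 11, 13 and 35 and 411, 1174 and 748 in *WT* clones 28, 29 and 36. The *WT* clones spread more widely than the *R98S* clones, and *WT* clone 29 equalled *R98S* clone 13. The log2 mRNA change was 0.61 (95% interval −0.14 to 1.36, limma adjusted p = 0.386).

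*Lgals9* RPF counts were 627, 686 and 767 in *R98S* clones and 491, 818 and 476 in *WT* clones. The highest value of all 6 clones was that of *WT* clone 29, and the log2 RPF change was 0.26 (95% interval −0.24 to 0.76, limma adjusted p = 0.559). Its RPF to mRNA ratio was 0.584 to 0.683 in *R98S* clones against 1.20, 0.697 and 0.636 in *WT* clones 28, 29 and 36, and the log2 TE change was −0.35 (limma adjusted p = 0.701). In *WT* clone 28, the shallowest mRNA library, *Lgals9* had 153 mRNA reads. The ratio of *Lgals1* was also highest in this clone (1.14), where it had 5638 mRNA reads. Why the ratios of this clone were high was not tested.

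*Lgals1*, on chromosome 15 (78926725 to 78930465, plus strand), encodes galectin-1, the main galectin of these cells by level. Normalized mRNA counts were 18237, 12421 and 17719 in *R98S* clones 11, 13 and 35 and 15140.2, 22136 and 12529.7 in *WT* clones 28, 29 and 36. The ranges overlapped, with *WT* clone 29 alone above the *R98S* clones. The log2 mRNA change was −0.02 (95% interval −0.58 to 0.53, limma adjusted p = 0.975), and its sign turned without *R98S* clone 13 (0.16) and without *WT* clone 29 (0.21).

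*Lgals1* RPF counts were 11597, 8443 and 10299 in *R98S* clones and 17259, 13209.7 and 9144 in *WT* clones. *WT* clone 36 fell inside the *R98S* range, and the log2 RPF change was −0.35 (95% interval −0.91 to 0.21, limma adjusted p = 0.473). Its RPF to mRNA ratio was 0.581 to 0.680 in *R98S* clones and 0.597 to 1.14 in *WT* clones, the highest again in clone 28, and the log2 TE change was −0.33 (limma adjusted p = 0.709). For TE, 0 of these 3 members passed by limma, edgeR or DESeq2, 0 had an unadjusted p under 0.05 by limma (7.85% of all genes had, and the clones of 14.8% did not overlap), and the background of calls was 0.0221%.

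*Lgals3bp*, on chromosome 11 (118392751 to 118402092, minus strand), had few reads. Its reads were 5, 13 and 14 in *R98S* clones and 3, 14 and 11 in *WT* clones, or 3.97, 10.6 and 12.04 and 8.06, 11.5 and 8.62 normalized counts. The genotypes overlapped, and no test was made because the mean was under the minimum of 10 normalized counts. *Lgals3bp* was not in the ribosome footprint table, so it has no RPF values.

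**Figure D2:**
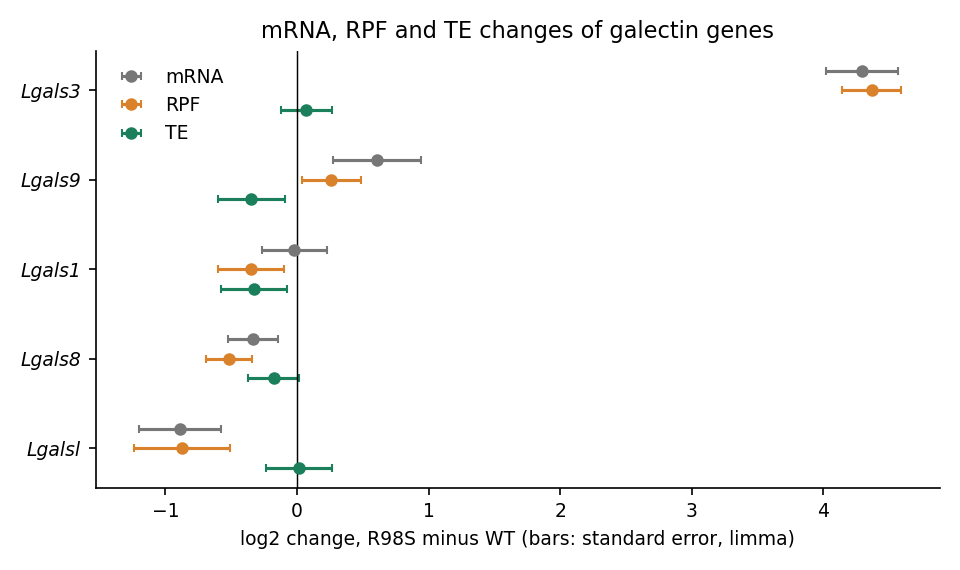
Log2 change from *WT* to *R98S* in mRNA, RPF and TE for 5 galectin family genes, with bars for the limma standard error. *Lgals3* lies at 4.30 in mRNA and 4.37 in RPF with TE at 0.07, and the other genes lie between −0.89 and 0.61.

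**Figure D3:**
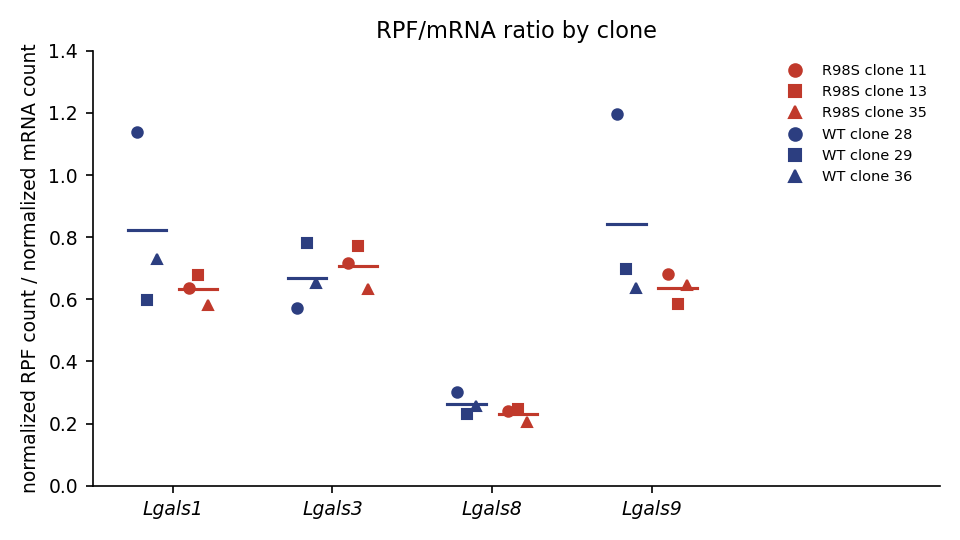
RPF to mRNA ratio of normalized counts in each clone, with the axis starting at 0 and lines at the means. The ratios of *Lgals3* overlap between genotypes and *WT* clone 28 has the highest ratio for *Lgals1* (1.14), *Lgals8* (0.301) and *Lgals9* (1.20).

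Levels were compared between genes per kb, RPF over the counted coding sequence, which leaves out 15 codons at the start and 5 at the end, and mRNA over the union of exons. In *WT* cells the order of mean normalized RPF counts per kb was *Lgals1* (38274), *Lgals9* (596), *Lgals8* (404), *Lgalsl* (142) and *Lgals3* (37.5), and no neighbours in this order overlapped among clones. In *R98S* cells *Lgals1* (29313) was followed by *Lgals3* (814), *Lgals9* (694), *Lgals8* (283) and *Lgalsl* (82.5), with *Lgals3* and *Lgals9* overlapping. *Lgals3* thus went from the lowest footprint level of these 5 genes in *WT* clones to the same range as *Lgals9* in *R98S* clones. Among 9300 genes in RPF and 10820 in mRNA with a length and a mean of at least 10, its RPF level per kb was at percentile 14.2 in *WT* and 84.5 in *R98S*, and its mRNA level per kb at 14.9 and 82.0.

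*Lgals1* stood at percentile 99.9 of RPF per kb in both genotypes. It held 93.4 to 94.5% of the summed galectin RPF per kb in *R98S* clones and 96.1 to 97.9% in *WT* clones. *Lgals3* held 2.46 to 2.76% in *R98S* clones and 0.0741 to 0.137% in *WT* clones. Relative to the median gene of each clone, the log2 ratio of RPF per kb to mRNA per kb of *Lgals3* averaged 0.78 in *R98S* and 0.70 in *WT* clones, and that of *Lgals8* −0.17 and 0.01. With the longest coding transcript as mRNA length, an alternative chosen after seeing the data, these were 0.93 and 0.85 for *Lgals3* and −0.0052 and 0.18 for *Lgals8*.

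**Figure D4:**
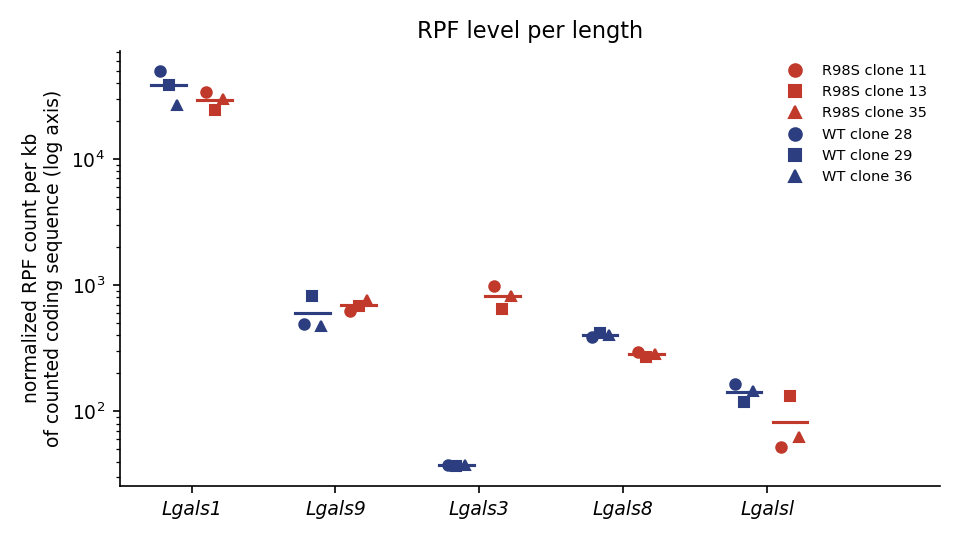
Normalized RPF counts per kb of counted coding sequence on a log axis, by clone, for 5 galectin family genes. *Lgals3* averages 814 in *R98S* clones and 37.5 in *WT* clones, and *Lgals1* lies far above the others at 24473 or more in every clone.

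Of the 7 other galectin family genes looked for, 6 were in the mRNA table, and 3 reached the minimum mean for a test, *Lgals7* only through its *R98S* clones. Galectin-7 is a single-domain galectin best known from stratified epithelia, and *Lgals7* lies on chromosome 7 (28863853 to 28866284, plus strand). In normalized counts its mRNA was 209, 130.2 and 236 in *R98S* clones 11, 13 and 35 and 2.69, 0.825 and 0.784 in *WT* clones 28, 29 and 36, the latter being 1 read in each library. Every *R98S* clone was far above every *WT* clone. Because a gene at this level in *WT* clones enters the filtered fit only if *R98S* is high, the test is given from the fit with no filter (log2 change 6.35, limma adjusted p = 9.67e-05), and this log2 change depends on the value added before taking logs. The ratio of the 697 reads to the 3 reads was 182 after scaling for depth, with a 95% counting interval of 62.2 to 887 that covers counting error only. *Lgals7* was not in the ribosome footprint table, so it has no RPF values.

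*Lgals4*, a gene of the gut galectin-4 that ends 22145 bp before *Lgals7*, had normalized mRNA counts of 31.8, 25.4 and 28.4 in *R98S* clones and 43.0, 18.1 and 18.8 in *WT* clones. The genotypes overlapped (log2 change 0.20, limma adjusted p = 0.860). *Lgalsl*, which encodes a galectin-like protein, had 261, 532 and 236 mRNA counts in *R98S* clones and 505, 573 and 723 in *WT* clones. *R98S* clone 13 overlapped the *WT* clones, and the log2 change was −0.89 (limma adjusted p = 0.163). Its RPF change was −0.87 (limma adjusted p = 0.209). Of its transcript's 30-base words, 7.08% occurred in other genes, among them *Lgals1* pseudogenes. *Lgals2*, *Lgals12* and *Grifin* had a few reads at most in any library.

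The RPF and mRNA pattern of *Lgals3* over the 12 libraries was compared with that of 9501 genes, as a description without a test, since libraries share clones and depth. The 5 genes most like it were *Dhrs4* (Pearson r = 0.991), *Cblb* (0.968), *Noxred1* (0.966), *Cspg4* (0.965) and *Nit2* (0.964). *Cspg4* in both measurements and *Noxred1* in RPF reached the minimum mean only through *R98S* clones. Because *Lgals3* was selected on its difference between genotypes, r largely follows that same difference. It takes no account of the size of a change, and *Nit2* had log2 changes of 0.27 in mRNA and 0.32 in RPF. *Dhrs4*, on the same chromosome as *Lgals3*, had 399 to 441 RPF counts in *R98S* clones and 241 to 249 in *WT* clones. *Cblb*, an E3 ubiquitin ligase that restrains lymphocyte activation, had 516 to 668 and 121 to 175. Among the members, r with *Lgals3* was −0.83 for *Lgals8*, 0.45 for *Lgals9* and −0.26 for *Lgals1*.

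Genes within 200 kb of *Lgals3* were read for the same direction. Of 7 tested, 0 passed in mRNA by limma and 1 had an unadjusted p under 0.05 (log2 changes −0.31 to 0.76), where 6.94% and 17.9% of all genes did. In RPF 1 rose, where 3.13% of all genes rose. It was *Atg14* (0.82, limma adjusted p = 0.0985), named after its values were seen. The median gene of chromosome 14 stood at 0.24 and 0.17 in the mRNA of *R98S* clones 11 and 13 and at −0.08 in clone 35, on the log2 scale. The median gene of chromosome 11, which holds *Lgals9*, stood at 0.27 in the mRNA and 0.28 in the RPF of *R98S* clone 13. It was negative in both for every other clone. With chromosome medians removed the members kept the signs of their changes except *Lgals1* in mRNA. The log2 RPF change of *Lgals9* was then 0.14 instead of 0.26. Of 12 genes tested in mRNA within 200 kb of *Lgals7*, 2 were called higher by limma, where 3.03% of all genes were. This count includes *Fbxo27*, which reached the minimum mean only through *R98S* clones, so nothing is read from it. The median log2 change of the 12 was 0.07. *Rinl* rose in mRNA (1.30, limma adjusted p = 0.0690), and the mean normalized mRNA count of *Fbxo27* was 51.8 over *R98S* clones against 3.88 over *WT* clones. Both were named after their values were seen.

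*Lgals3* is also known as a marker of macrophages, and the sum of 12 macrophage markers, 11 of them in the table, in normalized mRNA counts was 152 to 405 for *R98S* clones and 321 to 647 in *WT* clones. *C1qa* was at 0 in every library. *Csf1r* was at 0 in all *R98S* clones and *WT* clone 28, and at 3.30 or less in *WT* clones 29 and 36. *Cd68* was at 99.2 to 145 in *R98S* clones and 118 to 158 in *WT* clones. *Mpeg1* was at 50.0 to 96.6 in *R98S* clones and 21.5 to 146 in *WT* clones. The genotypes overlapped for *Cd68* and *Mpeg1*. *Mertk* was at 155 and 110.04 in *R98S* clones 13 and 35 and at 0 in the other 4 clones, *Fcgr1* was at 0.794 to 4.30 in *R98S* clones and 29.8 to 72.5 in *WT* clones, and *Cd14* was at 429.7 in *WT* clone 28 and at 4.91 or less elsewhere. These 3 markers reached the minimum mean only through the clones where they were high. The lymphoid and Ba/F3 markers summed to 100806 to 122568 in *R98S* clones and 48089.8 to 93811 in *WT* clones, most of it from *Csf2rb* and *Csf2rb2*. In RPF, 2 of the 6 tested rose and 1, *Ptprc*, fell (−1.19, limma adjusted p = 0.0157), where 3.13% and 4.62% of all genes did. Without *R98S* clone 11 or *WT* clone 36, 1 of the 6 rose, and without *R98S* clone 35 or *WT* clone 28, 3 rose. *Csf2rb2* encodes a beta chain of the interleukin-3 receptor and rose in mRNA (0.95, limma adjusted p = 0.0424) and RPF (1.08, limma adjusted p = 0.00886). The mRNA call of *Csf2rb2* was among those lost without *R98S* clone 11 or *WT* clone 36. Their part in the *Lgals3* difference was not tested.

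The genes that make the sugars galectins bind were counted by list. Of 16 tested enzymes of N-glycan trimming and branching, 1 fell in both mRNA and RPF, against 3.91% and 4.62% of all genes that fell: *St3gal4*, a sialyltransferase that caps galactose. In normalized counts its mRNA was 886 to 1407 in *R98S* clones and 2764 to 3339 in *WT* clones (log2 change −1.54, limma adjusted p = 0.00402), and its RPF change was −1.33 (limma adjusted p = 0.00526). Of 8 core O-glycan enzymes, 1 fell in mRNA and 2 in RPF. These were *St3gal2*, a sialyltransferase of O-glycans (RPF −1.12, limma adjusted p = 0.0850), and *Gcnt1*, the core branching enzyme (RPF −0.90, limma adjusted p = 0.0235). Without *R98S* clone 11 or without clone 13, 0 of the 8 passed in either measurement, and in mRNA 0 passed without *R98S* clone 35 or *WT* clone 36 and 4 without *WT* clone 28. Of 11 sugar nucleotide genes, 0 passed in mRNA by limma, edgeR or DESeq2 (1 at an unadjusted p under 0.05 by limma). Of these, 1 rose in RPF, where 3.13% of all genes rose. It was *Galt*, of galactose metabolism (0.96, limma adjusted p = 0.0392), a call that was lost without *R98S* clone 11 or 13.

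Among 15 tested genes for glycoproteins that galectins bind, 1 rose and 1 fell in mRNA and 3 fell in RPF by limma. Of all genes, 3.03% rose and 3.91% fell in mRNA, and 4.62% fell in RPF. At an unadjusted p under 0.05, limma gave 6 of the 15 in mRNA and 9 in RPF, where all genes gave 17.9% and 20.3%. In RPF, DESeq2 called 3 higher and 4 lower (469 and 626 of all 9580 genes). With chromosome medians removed, limma called 2 higher and 2 lower (250 and 421 of all genes). *Ptprc*, which encodes the phosphatase CD45, fell in RPF from 5365 to 8987 normalized counts in *WT* clones to 2615 to 3284 in *R98S* clones (log2 change −1.19, limma adjusted p = 0.0157). *Itgb1*, integrin beta-1, fell in RPF (−0.76, limma adjusted p = 0.0428), and *Bsg*, the glycoprotein basigin, fell in mRNA (−0.76, limma adjusted p = 0.0759) and RPF (−0.64, limma adjusted p = 0.0703). *Lag3*, an inhibitory receptor, rose in mRNA (1.44, limma adjusted p = 0.0475). Without *R98S* clone 11, clone 13 or *WT* clone 36, 0 of the 15 passed in mRNA and 1 in RPF.

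Of 26 tested genes of the damaged lysosome response, 0 passed in mRNA by limma or edgeR, 2 by DESeq2 and 3 at an unadjusted p under 0.05 by limma. Of all genes, 17.9% had an unadjusted p under 0.05 in mRNA. In RPF 8 of the 26 had an unadjusted p under 0.05 by limma, where all genes gave 20.3%. By adjusted p, 1 of the 26 rose and 1 fell in RPF, where 3.13% and 4.62% of all genes did. *Map3k7*, the kinase TAK1, rose (0.66, limma adjusted p = 0.0866) and *Trim16*, an E3 ligase that binds galectin-3, fell (−1.24, limma adjusted p = 0.0454). Both calls were lost without *R98S* clone 11 or 13 or *WT* clone 28 or 36. Among the cytosolic and nuclear partners of galectins, 0 of 6 passed in mRNA and 0 of 7 in RPF by limma or edgeR (1 and 2 at an unadjusted p under 0.05), and DESeq2 called 1 in RPF. The median log2 change in RPF was 0.14 for the N-glycan list, −0.14 for the O-glycan list, 0.05 for the sugar nucleotide genes, 0.08 for the bound glycoproteins, 0.11 for the lysosome genes and 0.09 for the partners, against 0.01 for all genes. In TE, 0 genes of these 6 lists were called by limma, edgeR or DESeq2, and at an unadjusted p under 0.05 limma gave 3 of 26 lysosome genes and at most 2 in any other list.

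**Figure D5:**
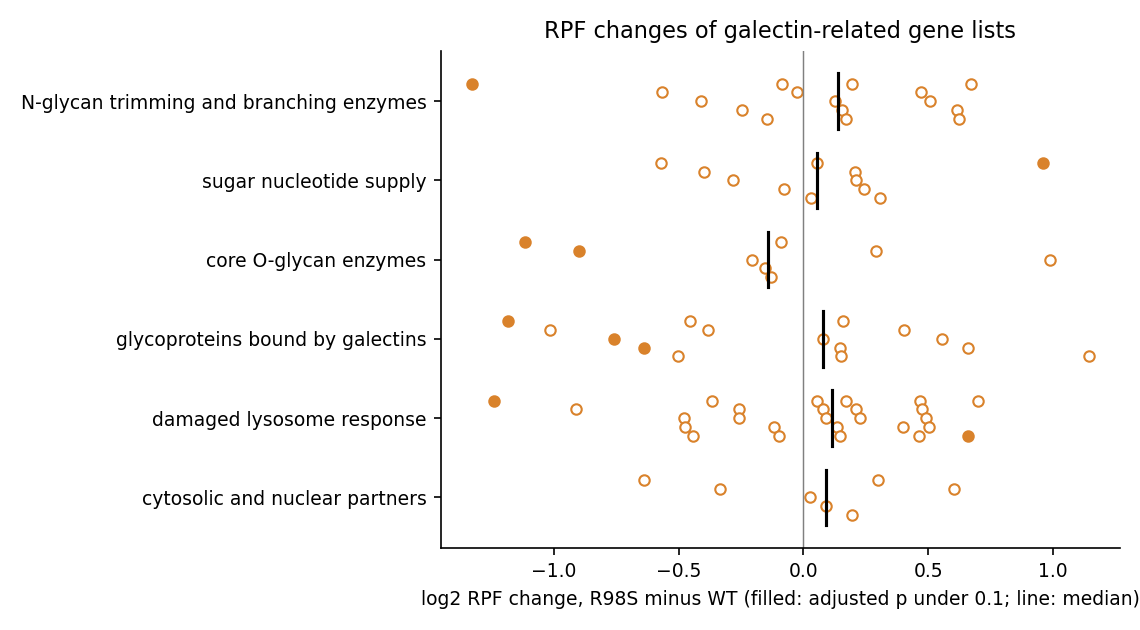
Log2 RPF change from *WT* to *R98S* of each gene in 6 galectin-related lists, with filled points for an adjusted p under 0.1 by limma and lines at the medians. *St3gal4* lies at −1.33 and *Galt* at 0.96, and most genes are open points on either side of 0.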

How the data were processed

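Ribosome footprinting (RPF) and mRNA libraries of 6 Ba/F3 clones were used, 12 in all. The values are signal: the authors deposited, for each kind of library, 1 table of gene counts divided by DESeq2 size factors. Per the labels and the study's methods, reads were aligned to mm10 (GRCm38) with TopHat2 2.0.11 after Bowtie2 removal of ribosomal RNA, alignments with a mapping quality of at least 10 were kept, and 3 technical replicates of each footprint library were merged. Footprints were counted over coding sequences without the first 15 and last 5 codons.

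From the values above 0, whole reads were recovered in 100% of cases. After adding 1, log2 values were fitted by limma (version 3.58.1, R 4.3.3) for genes with a mean of at least 10, in all 6 clones, and called at a Benjamini-Hochberg adjusted p of 0.1. TE used the log2 RPF minus mRNA value of each clone, which blocks on the clone because both libraries come from the same clone. The deviations of the 2 libraries correlated at 0.218 to 0.681 (mean 0.519), and 6 of 6 clones correlated best with themselves. On the recovered reads edgeR 4.0.16 called 805 genes in mRNA and 808 in RPF, and DESeq2 1.42.0 called 1283 and 1095. Simulated data held 200 changed genes per comparison, each shifted by 1.5 log2 units. Of these 200, limma recovered 187 in mRNA, 184 in RPF and 162 in TE, with 26, 18 and 19 false calls. The simulation gave all genes of a comparison the same dispersion and drew mRNA and RPF independently. Differences in variance between genes and the correlation within a clone were thus absent, and these figures may not hold for the real data. Recovery of smaller shifts, such as those of the uncalled galectin genes, was not tested.

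Named genes were the members, the other galectin family genes, up to 4 genes of each list with the largest called change and no overlap between genotypes, and the 5 genes most like *Lgals3*. The members and lists were chosen with earlier results of these data known. Genome positions are from GENCODE M21 and promoter windows from RefSeq; other datasets of the study were not analysed here.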

Additional observations from a re-analysis of the deposited data

How the results depend on the processing

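The 3 against 3 design limits exact permutation p-values to 0.1 or more, and fits that leave out 1 clone have fewer clones to call from. The number of genes called in mRNA was 787 and became 1283 with DESeq2 and 2959 with array weights, and 316 to 1109 over the fits that each left out 1 clone. In RPF it was 743 and became 1799 with array weights and 226 to 1156 with a clone left out. For TE it was 2 and became 4 with no filter, 54 with DESeq2, 796 with array weights, and 0 to 3 with a clone left out. Without the replicate block, 3 genes were called for TE and no call among the galectin genes changed. The causes were not tested.

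Of 198 values of single galectin genes with a test under other settings, 180 kept direction and side of the threshold, 13 turned in sign and 5 passed the threshold. Of 42 values of *Lgals3*, which has no test, 41 moved by less than the clone spread and 1 by more (RPF 4.07 at a pseudocount of 8), and 3 TE values turned in sign, at a pseudocount of 8 (−0.019), with array weights (−0.054) and without *WT* clone 28 (−0.032). *Lgals3* stayed between 4.16 and 4.52 in mRNA and between 4.22 and 4.52 in RPF with each clone left out. *Lgals8* in RPF passed with array weights alone (−0.51, limma adjusted p = 0.0602; 0.0602 to 0.350 over its alternatives), as did its mRNA (−0.40, 0.0750). *Lgalsl* mRNA passed with array weights (−1.14), chromosome medians removed (−0.99) and without *R98S* clone 13 (−1.25).

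The 13 sign turns were of uncalled values, and over the fits without 1 clone the values spanned −0.20 to 0.21 for *Lgals1* mRNA, −0.0059 to 0.59 for *Lgals4* mRNA and −0.11 to 0.23 for *Lgalsl* TE: *Lgals1* mRNA with array weights (0.22), chromosome medians removed (0.013), without *R98S* clone 13 (0.16) and without *WT* clone 29 (0.21), *Lgals1* TE with array weights (0.013), *Lgals4* mRNA without *WT* clone 29 (−0.0059), and *Lgalsl* TE with edgeR (−0.035), DESeq2 (−0.027), chromosome medians removed (−0.0054), without *R98S* clones 13 (−0.014) or 35 (−0.070) and without *WT* clones 29 (−0.083) or 36 (−0.11).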
